A study of Homo sapiens with 7 samples.

Results

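The genes for the proteins of the cytosolic ribosome were followed through 7 long-read RNA libraries of HUES66 cells, a line of human embryonic stem cells. They were chosen by symbol: RPL or RPS with digits and at most 1 closing letter A, L or X, together with RPLP0, RPLP1, RPLP2 and RPSA, and with pseudogenes left out. The rule matched 81 symbols in the gene name table, and 79 of them were among the 14294 genes of the deposited table. RPL3L and RPL10L were not analysed here. The 79 genes comprise 31 of the small subunit, 43 of the large subunit, 3 of the P stalk and 2 paralogs, RPL39L and RPS27L. They were represented by 2072 isoforms, 243 of them with a reference transcript ID and the other 1829 with a hashed name.

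The study read polyadenylated RNA end to end on a PacBio instrument after Cas13d, an RNA-guided nuclease that cleaves RNA, had been directed at isoforms of RBFOX2, a splicing regulator. There was 1 control library, labelled WT, and 6 G libraries, named by the G number in their labels. The label of each also holds an RBFOX2 id, which is 178147 for G3, 178149 for G5, 178136 for G11, 178135 for G12, 178145 for G13 and 178146 for G14. All 7 cultures, the control included, were given doxycycline at 1 µg/ml and sampled after 24 h, and all carry the description piggyBac. The labels do not say which isoform an id denotes or whether a library comes from 1 clone. Each group is a single library: differences have no replicate check, no p-value was computed, and every interval covers counting error only. In bulk RNA, fewer cells of a kind and less RNA per cell cannot be told apart.

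Ribosomal proteins are small, mostly basic proteins that fold around ribosomal RNA. The small subunit decodes the mRNA, the large subunit forms the peptide bond, and the P stalk (RPLP0, RPLP1 and RPLP2) recruits the translation factors. Because the ribosome holds a copy of nearly every protein, their synthesis is coordinated. Their mRNAs are the classical TOP mRNAs: transcription starts at a C that is followed by a run of pyrimidines, the terminal oligopyrimidine, through which mTORC1 and LARP1 control their translation and stability. The genes have many processed pseudogenes, copies of the mRNA inserted back into the genome. Such copies resemble the parent mRNA closely enough to compete for reads.

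The start sites are shown first, since the pyrimidine run is the sequence by which this gene group is known. RefSeq promoter entries (GRCh38.p14) were matched for 63 of the 79 genes. Each sequence below covers 10 bases before the RefSeq start and 20 from it, on the coding strand, and capitals mark the run of C and T that lies at or within 2 bases of the start. RPL3 is the most abundant member here, RPS6 and RPLP0 lead the small subunit and the stalk, RPS24 and RPS19 have isoforms described further on, RPL36 had the lowest median ratio to the control, and RPS4X and RPL4 show a short run and no run.
RPL3, chr22:39319604-39319633, minus strand: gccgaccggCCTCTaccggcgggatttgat
RPS6, chr9:19380217-19380246, minus strand: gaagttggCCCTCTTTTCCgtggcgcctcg
RPLP0, chr12:120201092-120201121, minus strand: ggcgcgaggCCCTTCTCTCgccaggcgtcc
RPS24, chr10:78033853-78033882, plus strand: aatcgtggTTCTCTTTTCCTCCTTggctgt
RPS19, chr19:41860245-41860274, plus strand: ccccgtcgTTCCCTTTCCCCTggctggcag
RPL36, chr19:5690285-5690314, plus strand: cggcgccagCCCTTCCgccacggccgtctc
RPS4X, chrX:72277229-72277258, minus strand: ctccagccccaaTTTCTacgcgcaccggaa
RPL4, chr15:66504836-66504865, minus strand: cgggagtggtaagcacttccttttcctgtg

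A run of at least 5 pyrimidines, read on the coding strand only, began at or within 2 bases of the start, or covered it, in 51 of the 63 genes (81.0%). The same search found one in 17.1% of all 35116 RefSeq promoter windows. The base at the start was a C in 48 of the 63 genes (76.2%), against 14.7% of all windows. The median run among the 51 genes that had one was 12 bases long. The 12 genes without such a run were RPL4, RPL6, RPL9, RPL11, RPL15, RPL17, RPL19, RPL27, RPL32, RPS15, RPS27L and RPS29. Each member was scored at a single promoter entry, even where it had more. Of the 12, RPL6, RPL11 and RPL19 have 2 entries, and RPL15 and RPL32 have 3. The RPL4 window printed above holds a pyrimidine run further downstream, outside the limit of 2 bases. Absence here thus applies to the scored start only. A match describes the letters at the annotated start and not a measured site. The most abundant listed isoform began within 10 nt of the RefSeq start in 35 genes, more than 10 nt upstream in 21 and more than 10 nt downstream in 7. Both listed ends lay within 10 nt of the GENCODE 29 ends in 44 of 234 reference isoforms of the members, so the ends in the table may be the outermost bases of the reads and are not measured end sites.

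Library depth was 16801842 reads in the control and 17848098 (G3) to 26678538 (G12) in the G libraries, and 3 reads, taken as the floor, are worth 0.112 to 0.179 TPM. The TPM values carry no correction for transcript length: they are reads relative to library size. RBFOX2, the targeted gene, stood at 39.2% of the control (G3), 90.3% (G5), 77.3% (G11), 82.5% (G12), 52.2% (G13) and 98.6% (G14). All 10 pluripotency markers were listed, and the 9 that were compared had median log2 ratios between -0.28 (G12) and 0.25 (G5). POU5F1 and NANOG were lower in all 6 G libraries (915 TPM against 377 to 588, and 10.0 against 3.49 to 5.54), whereas L1TD1, TDGF1, SALL4 and DPPA4 were higher in all 6 (L1TD1 18.2 TPM against 24.9 to 41.0). The listed germ-layer and trophectoderm markers reached at most 1.10 TPM (GATA3 in G11). The table lists no isoform without a control read, which leaves out any that only a G library contained. The listed isoforms held 98.1% to 98.6% of the reads of a G library and 100% of those of the control.

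The share of all reads held by the 79 genes together was highest in the control. It was 1.52% there (95% Wilson interval 1.514 to 1.525), from 255300 reads. Elsewhere it came to 0.920% in G3 and 0.769% in G5, 0.835% in G11 and 1.06% in G12, then 1.09% in G13 and 0.661% in G14. These are 60.6%, 50.6%, 55.0%, 69.9%, 71.7% and 43.5% of the control share, so all 6 G libraries lay below the control and G14 lay lowest. All 6 comparisons share the one control library. A high control and low G libraries cannot be told apart from this design. The mitochondrial ribosomal protein genes held 1.37% of the control reads and 1.01% to 1.31% of those of the G libraries.

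**Figure D1:**
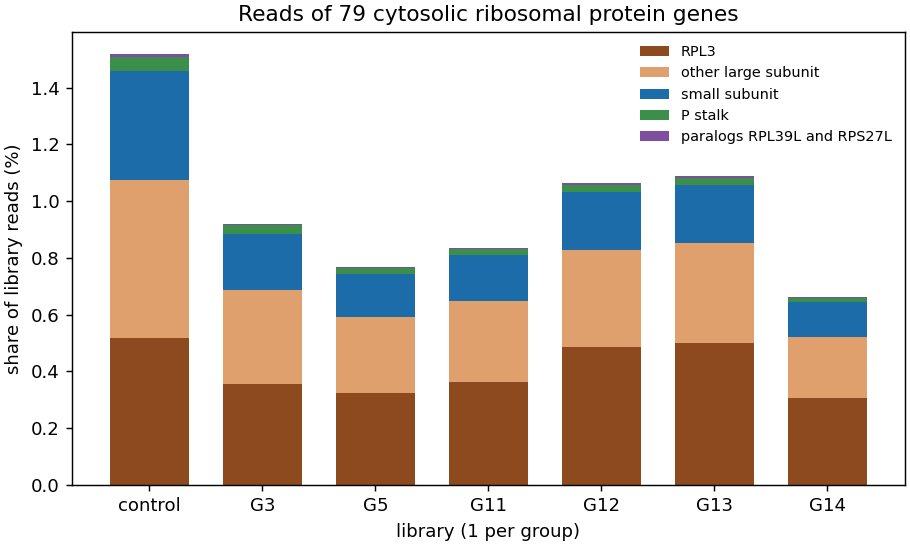
Stacked bars give the percent of all library reads (vertical axis) held by RPL3, the other large-subunit genes, the small-subunit genes, the P stalk genes and the paralogs RPL39L and RPS27L in each of the 7 libraries. The control bar reaches 1.52% and the G bars 0.661% to 1.09%, and RPL3 alone makes up 33.9% of the control bar.

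RPL3 dominated the group. It encodes a large-subunit protein that lies near the peptidyl transferase centre, and is encoded at chr22:39312882-39320389 (GRCh38), minus strand. It was read 86629 times in the control, or 5156 TPM, which was 33.9% of all member reads. In the G libraries RPL3 made up 38.6% (G3) to 46.1% (G14) of the member reads, more than in the control in each. Without RPL3, a summation added after the values were seen, the remaining members held 1.00% of the control reads and 35.5% (G14) to 58.8% (G13) of that share in the G libraries. The 5 most abundant members together held 60.1% of member reads in the control. The small-subunit genes held 25.2% of member reads in the control and between 18.6% (G14) and 21.5% (G3) in the G libraries.

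The levels of the members spanned a wide range. Mean TPM over the 7 libraries ran from 4062 for RPL3 to 0.0612 for RPL39, a large-subunit protein of the peptide exit tunnel. RPS6, whose protein is a target of S6 kinase, led the small subunit with 813 TPM, and RPLP0, the core of the stalk, led the P stalk with 241 TPM. RPS10 was lowest in the small subunit at 0.817 TPM and RPLP2 lowest in the stalk at 1.90 TPM. Of the paralogs, RPS27L stood at 35.8 TPM and RPL39L at 27.1 TPM. RPL39L was thus read 386 to 833 times in each library, while RPL39 itself had 5 reads in the control and 0 or 1 in each G library. These values rank full-length reads and not transcripts per cell. How evenly transcripts of different length were recovered was not tested.

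Transcript length and pseudogene number had weak correlations with these levels. Across 77 members, log2 mean TPM and log2 transcript length gave a Pearson r of 0.22 and a Spearman rho of 0.23, as a description over genes of the same libraries. The shortest members were nonetheless read least. The median of the mean TPM was 11.2 for 11 members below 600 nt, 27.7 for 23 from there to below 1000 nt and 35.8 for 43 longer ones. In these classes 6, 21 and 38 members had a mean TPM of at least 5. Across all 79 members, r was -0.01 and rho 0.06 between log2 mean TPM and the number of pseudogenes named after the member in GENCODE 29. That annotation names 1132 such pseudogenes for 76 of the members, up to 91 for RPL23A. Only RPL13P5 among them was listed, at 2.16 to 4.65 TPM. How reads that match both a parent and its copies were assigned is not given in the sources used here, so the level of a member with many copies is uncertain. RPL17, RPL36, RPS10 and RPL36A also overlap annotated read-through genes, and reads shared with these could be counted under either.

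A mean TPM below 5 kept 13 of the 79 genes out of the comparison between libraries, which left 66. Among them were RPL41, RPL38, RPS12, RPS29, RPL12, RPLP2, RPL36A, RPS27, RPS28, RPS21, RPS10 and RPL39. Their control reads ran from 5 (RPL39) to 149 (RPL41 and RPS12). RPL12, which sits at the base of the P stalk, had 97 reads in the control, 81 (G3), 63 (G5), 36 (G11), 46 (G12), 40 (G13) and 26 (G14). Those counts are 78.6% of the control level in G3 (57.8 to 107, exact 95% interval) and 21.5% to 42.9% in the others. RPS28 had 22 reads in the control and 9 to 30 in the G libraries.

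Among the 66 compared genes, nearly every one was lower in every G library than in the control. The median log2 ratio of (TPM + 0.5) to the control stood at -0.75 in G3 and -1.19 in G5, -1.02 in G11 and -0.85 in G12, then -0.76 in G13 and -1.35 in G14. Over all 7877 genes compared, the median was 0.12, 0.14, -0.04, -0.16, -0.21 and -0.10 in the same order. In G3, 47 of the 66 members were at least 1.5-fold lower than the control, against 12.3% of all genes compared. In G5 the count was 58 against 17.2%, and in G11 it was 57 against 22.5%. In G12 it was 40 against 22.6%, in G13 42 against 29.1%, and in G14 61 against 31.0%. No member was at least 1.5-fold higher in any G library, where 8.71% of all genes were (G3), 3.71% (G5), 6.53% (G11), 5.08% (G12), 6.86% (G13) and 15.5% (G14). At a 2-fold threshold 14 members were lower in G3 against 5.14% of all genes and 45 in G5 against 10.1%, 34 in G11 against 10.4% and 26 in G12 against 8.79%, then 21 in G13 against 14.6% and 49 in G14 against 18.9%. With a mean TPM of at least 20, which 43 members reached, 33 were at least 1.5-fold lower in G3 against 12.6% and 40 in G5 against 17.1%, 38 in G11 against 18.8% and 23 in G12 against 15.6%, then 24 in G13 against 21.7% and 42 in G14 against 27.3%. The filter uses the mean over all libraries, so these counts describe the genes that passed it and not all 79.

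**Figure D2:**
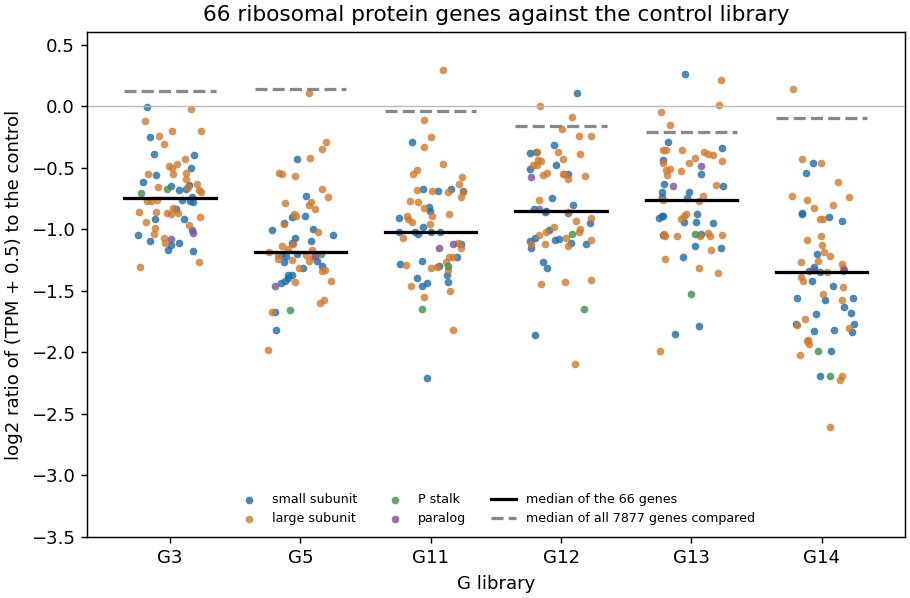
Each point is 1 of the 66 compared genes, coloured by role, with the log2 ratio of (TPM + 0.5) in a G library to the control on the vertical axis and the G library on the horizontal axis. Black bars mark the median of the 66 genes, from -1.35 in G14 to -0.75 in G3, and dashed grey bars the median of all 7877 genes, from -0.21 in G13 to 0.14 in G5.

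The control was the highest of the 7 libraries for 63 of the 66 genes, against 20.5% of all genes compared. The exceptions were RPL4, RPL23 and RPS20. G14 was the lowest for 50 of the 66, against 21.2% of all genes, and G5 for 10, G3 for 3, G11 for 2 and G12 for 1. In all, 32 members were at least 1.5-fold lower in all 6 G libraries, against 5.26% of all genes. None was at least 1.5-fold higher in all 6, against 0.584%. Among the 32 were RPL8, RPL11, RPL13, RPL13A, RPL17, RPL18, RPL21, RPL23A, RPL28, RPL29, RPL30, RPL32, RPL34 and RPL36 of the large subunit. Those of the small subunit included RPS4X, RPS6, RPS7, RPS9, RPS13, RPS15A, RPS16, RPS18, RPS23, RPS25 and RPS27A. RPLP0, RPLP1 and the paralog RPS27L were also in the set.

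**Figure D3:**
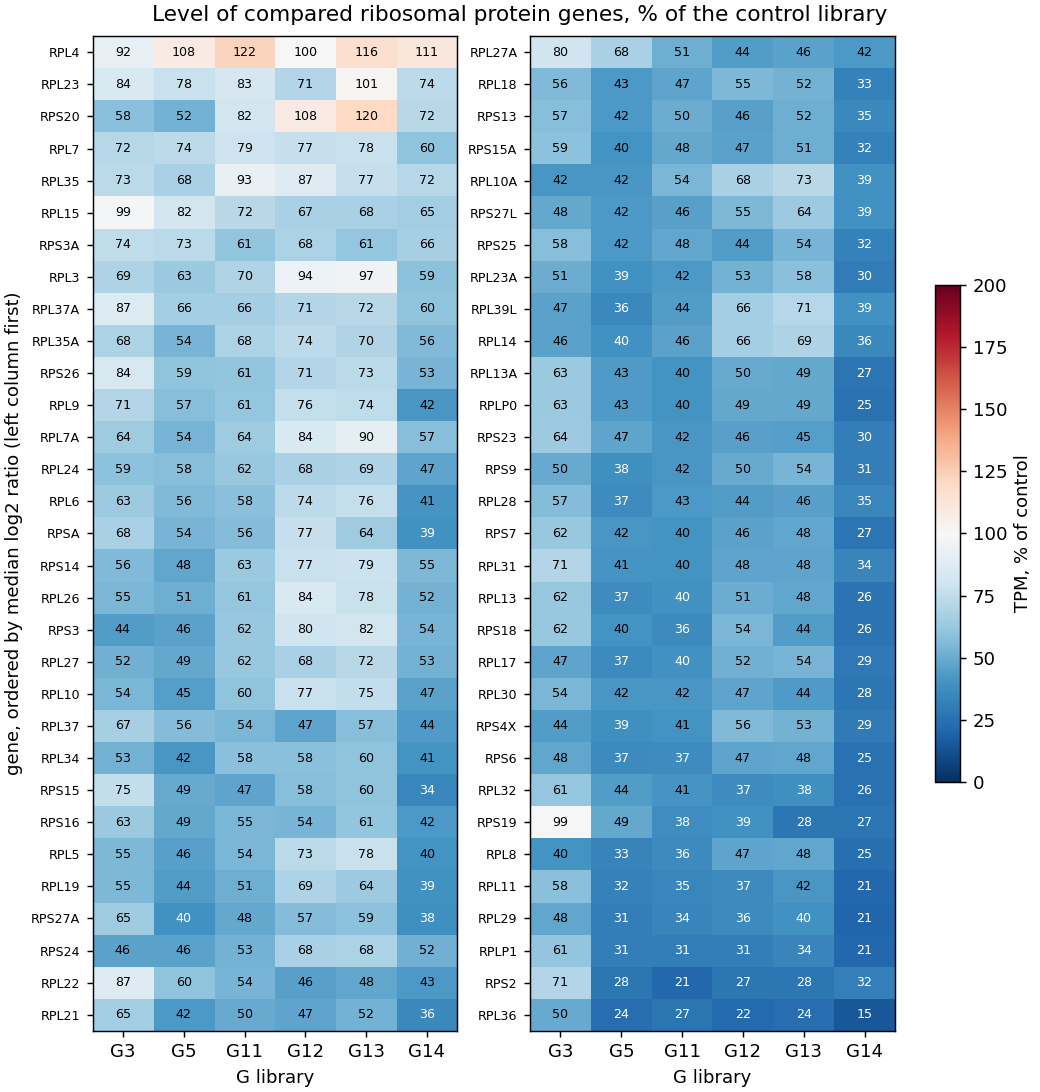
Each cell gives the TPM of a compared gene (rows, not all 66, ordered by median log2 ratio and continued in the right column) in a G library (columns) as a percent of the control, on a colour scale from 0 to 200. RPL4 at the top left lies between 91.8% and 122%, while RPL36 at the bottom right lies between 15.0% and 49.6%.

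RPL36, a large-subunit surface protein, had the smallest median ratio and the widest spread. It was read at 29.6 TPM in the control, 14.7 in G3 and 7.11 in G5, 8.02 in G11 and 6.52 in G12, then 7.06 in G13 and 4.44 in G14. The control was thus highest, G3 lay between it and the others, and G14 was lowest at 15.0% of the control (exact 95% interval 11.9 to 18.8). RPS2, a small-subunit protein at the mRNA entry side, stood at 158 TPM in the control and 111 in G3, and at 33.7 (G11) to 50.4 TPM (G14) in the other 5. Here G3 was again nearest to the control, at 70.6% (66.6 to 74.9), and G11 was lowest at 21.4% (19.6 to 23.2). RPLP1 of the P stalk had 45.8 TPM in the control, 27.8 (G3), 14.1 (G5), 14.3 (G11), 14.2 (G12), 15.5 (G13) and 9.64 (G14). Its levels in G5, G11, G12 and G13 were close to each other, and G14 was lowest.

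RPS19, the protein most often mutated in Diamond-Blackfan anaemia, had the largest spread over the 7 libraries after RPL36 and RPS2. It was read at 34.7 TPM in the control and 34.5 TPM in G3, which is 99.3% (88.5 to 111). It stood at 17.1 TPM in G5, at 13.2 in G11 and 13.6 in G12, and at 9.70 in G13 and 9.45 in G14, the last being 27.2% of the control (23.1 to 32.1). RPL15, a large-subunit protein, was likewise nearest to the control in G3, at 98.8% (96.1 to 102), and lowest in G14, at 65.0% (63.1 to 67).

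RPS6 and RPLP0 are the most abundant genes of the small subunit and the stalk. RPS6 had 1662 TPM in the control, 804 in G3 and 611 in G5, 615 in G11 and 782 in G12, then 802 in G13 and 417 in G14. RPLP0 had 457 TPM in the control, 287 (G3), 199 (G5), 185 (G11), 223 (G12), 222 (G13) and 115 (G14). In both genes all 6 G libraries lay below the control and G14 stood at 25.1% of it. RPL3 stayed nearer to the control: it was at 93.9% in G12 (93.1 to 94.7) and 96.8% in G13 (95.9 to 97.6), but at 68.9% in G3, 62.9% in G5, 69.9% in G11 and 59.1% in G14.

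RPL5, a large-subunit protein of the 5S particle that binds MDM2 when free, had 761 TPM in the control and 305 (G14) to 594 TPM (G13) in the G libraries. RPL10A, the protein of the mobile stalk at the exit site of the large subunit, had 415 TPM in the control, 172 in G3 and 173 in G5, 225 in G11 and 280 in G12, then 301 in G13 and 162 in G14. RPS3, of the mRNA entry channel, had 208 TPM in the control and 91.8 (G3), 96.0 (G5), 129 (G11), 167 (G12), 170 (G13) and 111 (G14). In these 3 genes G12 and G13 were nearest to the control. In RPS19, RPS2 and RPL36 it was G3.

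RPL4, RPL23 and RPS20 had the largest median ratios. RPL4, which encodes a protein of the exit tunnel, had 38.0 TPM in the control, 34.8 in G3 and 41.1 in G5, 46.5 in G11 and 38.0 in G12, then 44.0 in G13 and 42.0 in G14. Its exact interval lay above 100% of the control in G11 (111 to 136) and G13 (105 to 128) and spanned it in the others. RPL23, a large-subunit protein, ranged from 70.8% in G12 (59.3 to 84.6) to 101% in G13 (85.0 to 119). RPS20, a small-subunit protein of the head, had 22.3 TPM in the control, 12.9 (G3), 11.7 (G5), 18.2 (G11), 24.1 (G12), 26.8 (G13) and 16.0 (G14). RPL35 had, with RPL4 and RPL23, the smallest spread over the 7 libraries, from 9.98 TPM in G5 to 14.8 TPM in the control.

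Read-weighted transcript length is the mean over the listed isoforms of a gene that have a reference ID, measured between their listed ends. Hashed isoforms are left out of it. It was 3114 nt for RPL4, 2652 nt for RPL23 and 3203 nt for RPS20, against 746 nt for RPL36 and 1073 nt for RPS2. In RPL4 the leading isoform, ENST00000307961, has 3114 nt and held 41.1% of reads on average. RPL28 had 4064 nt and a median log2 ratio of -1.14. The median over the 65 compared members with a length was 1184 nt, against 2799 nt over all genes compared. Of these, 48 lay in the shortest of 5 equal bins, which reached up to 1742 nt. The other 1499 genes of that bin had a median log2 ratio of -0.46 in G3 and -0.79 in G5, -0.69 in G11 and -0.37 in G12, then -0.41 in G13 and -0.99 in G14, so the median short transcript was also lower in the G libraries. The 74 compared mitochondrial ribosomal protein genes had medians of -0.85, -0.89, -0.65, -0.35, -0.35 and -1.02. In the same order, 44.9%, 59.6%, 57.2%, 33.6%, 37.4% and 68.3% of the other short genes were at least 1.5-fold lower. Of the mitochondrial genes 58.1%, 64.9%, 58.1%, 28.4%, 28.4% and 63.5% were. The members had 71.2%, 87.9%, 86.4%, 60.6%, 63.6% and 92.4%. The median of the members lay below that of the other short genes in every G library, and below that of the mitochondrial genes in all but G3. Across 65 members the median log2 ratio gave r of 0.31 and rho of 0.23 with log2 length, and r of -0.39 and rho of -0.35 with GC content, as descriptions over genes that share libraries.

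**Figure D4:**
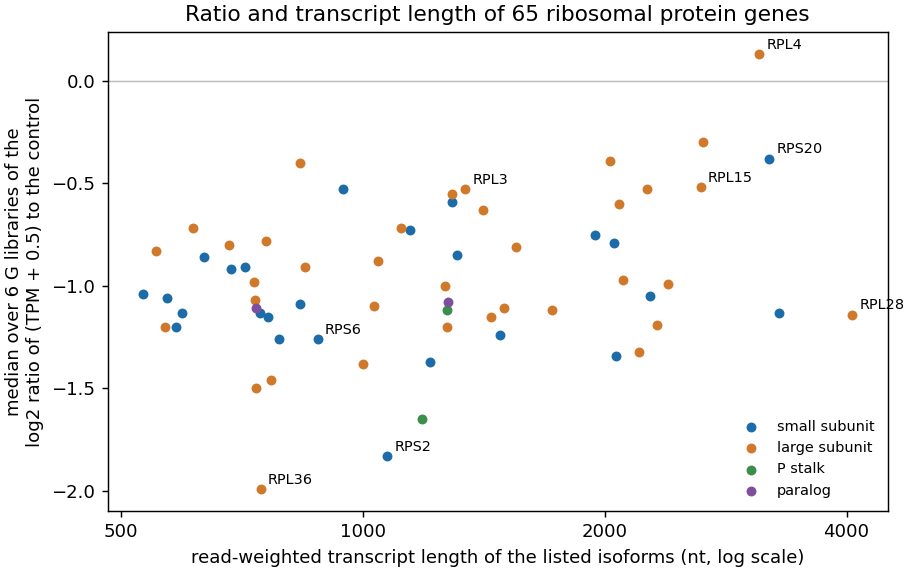
Points are 65 members, with the read-weighted length of their listed transcripts with a reference ID, in nucleotides, on a log axis. The vertical axis gives the median over the 6 G libraries of the log2 ratio to the control. RPL4, at 3114 nt, has the only median above 0, and RPL36, at 746 nt, has the lowest at -1.99.

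A trend in log2 length and GC content, quadratic in both and fitted per library over all genes, was then subtracted. The fit holds a constant, so it also took out the offset of all genes in each library. The median of all genes with a length was then 0.02 (G3), 0.07 (G5), 0.05 (G11), 0.02 (G12), 0.04 (G13) and 0.05 (G14). Before, over all genes compared, it had been 0.12, 0.14, -0.04, -0.16, -0.21 and -0.10. The shift of the members holds this offset as well as the trend. Their medians moved toward 0 and stayed below it. They were -0.15 (G3), -0.43 (G5), -0.42 (G11), -0.48 (G12), -0.51 (G13) and -0.64 (G14). On this scale 13 of 65 members were at least 1.5-fold lower in G3, against 6.78% of all genes. The counts were 21 in G5 against 8.77%, 28 in G11 against 11.5%, 29 in G12 against 10.7%, 28 in G13 against 14% and 36 in G14 against 17.8%. At least 1.5-fold higher were 1 in G3 against 4.80%, 2 in G5 against 3.53%, 1 in G11 against 8.77% and 1 in G14 against 17.8%. None was in G12 or G13, against 9.78% and 14.4%. The 74 mitochondrial ribosomal protein genes had medians of -0.29 (G3), -0.31 (G5), -0.27 (G11), -0.12 (G12), -0.11 (G13) and -0.45 (G14). In the same order, 28.4%, 28.4%, 20.3%, 6.76%, 10.8% and 40.5% of them were at least 1.5-fold lower. At least 1.5-fold higher were 0, 2, 4, 7, 7 and 6 of the 74. Their median lay below that of the members in G3 and above it in every other G library. What part length-dependent recovery of cDNA has in the unadjusted ratios was not tested.

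Other RNAs with a TOP and genes of the ribosome pathway were set beside the members. These lists, like the members, were chosen with earlier results of these data known, and no list was tested. Of 19 compared mRNAs with a known TOP that encode no ribosomal protein, 7 were at least 1.5-fold lower in G3 (12.3% of all genes were) and 7 in G5 (17.2%), 6 in G11 (22.5%) and 6 in G12 (22.6%), then 6 in G13 (29.1%) and 9 in G14 (31.0%). In G14, 2 were higher, and the medians lay between -0.29 and 0.10. EEF1B2, an elongation factor subunit, had 303 TPM in the control, with 104 to 195 TPM in the other 6 libraries. NACA and BTF3, the subunits of the complex that greets the nascent chain at the tunnel exit, had 1001 and 586 TPM in the control and 345 and 168 TPM in G14. NPM1, a nucleolar chaperone, had 1638 TPM in the control and 1336 (G14) to 1838 TPM (G3) in the G libraries. PABPC1, the poly(A)-binding protein, had 831 TPM in the control and 579 (G13) to 1004 TPM (G5).

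Of the ribosome-associated or fusion genes outside the naming rule, RACK1, a scaffold on the small subunit, had 1781 TPM in the control and 832 (G5) to 1580 TPM (G13) in the G libraries. FAU, which encodes a ubiquitin-like fusion of a small-subunit protein, had 24.5 TPM in the control and 7.35 (G14) to 12.3 TPM (G3). In both genes every G library lay below the control. Not all 7 related genes did so: RPL36AL had 29.6 TPM in the control, 31.0 in G12 and 33.2 in G13, and RPL7L1 had 36.5 TPM in the control and 38.7 in G3. Of the 6 that were compared, 5 were at least 1.5-fold lower in G3 and 5 in G5, 4 in G11 and 3 in G12, then 2 in G13 and 4 in G14, against the shares of all genes just given.

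The median of the genes that build ribosomes lay closer to the control than that of the members. The 37 compared ribosome biogenesis genes had medians of 0.20 (G3), 0.24 (G5), 0.02 (G11), -0.24 (G12), -0.24 (G13) and -0.14 (G14), with 4 (G12) to 10 (G14) genes at least 1.5-fold lower, against 22.6% and 31.0% of all genes, and 3 (G12) to 7 (G14) higher, against 5.08% and 15.5%. Among them NCL, a nucleolar protein of rRNA transcription, had 426 TPM in the control, against 325 to 492 TPM elsewhere. FBL, the rRNA methyltransferase of box C/D particles, had 403 TPM in the control, against 116 to 257 TPM elsewhere. The 15 chaperones and importers of ribosomal proteins had medians between -0.25 and 0.06. Of 18 listed genes of mTORC1 and TOP control, 12 were compared, with medians between -0.56 and 0.14. EIF4EBP1, a repressor of cap-dependent translation with the lowest median ratio of those compared, had 178 TPM in the control, against 61.2 to 147 TPM elsewhere. RHEB went the other way, with 43.9 TPM in the control and 47.8 to 61.3 TPM elsewhere. MTOR, RPTOR, LARP1, LARP4B, TSC2 and MYCN had a mean TPM below 5 and are not in these medians. Their own median log2 ratios ran from -2.11 (TSC2) to -0.37 (RPTOR), with MTOR at -1.84 and LARP1 at -1.72. LARP1 had 4.29 TPM in the control and 0.0560 (G3) to 1.30 TPM (G11) in the G libraries. In G3, MTOR, RPTOR, LARP4B and TSC2 lay above the control.

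The isoforms of the members were compared next. Usage distance is the total variation distance of a gene's isoform shares between 2 libraries, and runs from 0 (identical shares) to 1 (no isoform in common). For 61 members with at least 100 reads in every library its median against the control came to 0.067 in G3 and 0.081 in G5, 0.078 in G11 and 0.079 in G12, then 0.084 in G13 and 0.112 in G14. Over 6982 genes with that depth it was 0.057, 0.056, 0.059, 0.059, 0.066 and 0.070. A distance also contains counting error, which is larger at fewer reads. With isoforms of a reference ID alone the members' medians were 0.017 to 0.033. In 28 members a single isoform held at least 75% of the reads. RPL5 and RPS4X had the smallest distances, with leading isoforms at 97.6% and 99.0% of the gene.

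In 29 members at least 2 annotated isoforms held 5% or more of the gene, and in 17 of these they differed only in introns upstream of the start codon, which is 58.6%, against 23.5% of 2582 genes of any kind with such isoforms. RPL35A, a large-subunit protein also mutated in Diamond-Blackfan anaemia, is an example. Its isoform ENST00000448864 held 58.2% of reads in the control (54.9 to 61.4), 55.5% in G3 and 64.3% in G5, 73.0% in G11 and 78.4% in G12, then 79.7% in G13 (76.8 to 82.3) and 78.3% in G14. ENST00000647248 held 31.6% in the control (28.7 to 34.8), 36.1% in G3 and 26.9% in G5, 18.5% in G11 and 13.9% in G12, then 13.2% in G13 and 11.8% in G14 (9.52 to 14.6). The control, G3 and G5 thus lay on one side, and G11 to G14 on the other.

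RPS19 has a second isoform of this kind. ENST00000600467, which differs from the leading ENST00000598742 only upstream of the start codon, held 16.5% of reads in the control (13.7 to 19.7), 15.8% in G3 and 21.9% in G5. It held 33.2% in G11 (27.9 to 39.0), 39.8% in G12 (34.9 to 44.9), 35.7% in G13 and 33.3% in G14. The leading isoform held 52.8% in the control, 71.5% (G3), 61.1% (G5), 56.6% (G11), 42.0% (G12), 45.7% (G13) and 41.4% (G14). RPS19 had 198 (G14) to 615 (G3) reads.

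RPL37, a large-subunit zinc-finger protein, had the largest usage distance, from 0.161 in G12 to 0.501 in G14, at 114 to 210 reads. A hashed isoform whose listed 3′ end is position 40825265 of chromosome 5, on the minus strand, held 8.10% of its reads in the control (5.12 to 12.6). It held 34.2% in G3 and 33.0% in G5, 35.2% in G11 and 17.7% in G12 (12.6 to 24.4), then 24.5% in G13 and 52.6% in G14 (43.5 to 61.6). The annotated isoform, with a listed end at 40831287, held 37.1% in the control and 17.5% (G14) to 29.1% (G12) in the G libraries. The read numbers of the hashed isoform, whose length is not known, were 17 in the control and 28 to 60 in the G libraries. RPS19, RPL37A, RPL35 and RPL27A complete the 5 largest mean usage distances. A hashed isoform of RPL35 held 18.5% in the control (14.2 to 23.9) and 24.7% (G12) to 44.1% (G14) in the G libraries. The leading isoform of RPL27A held 42.6% in the control, 62.8% in G3, 62.2% in G5 and 42.8% to 52.4% in the others.

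Isoforms that read through an intron of the leading isoform held at least 1% of reads on average in 20 members. A spanned intron here is one that lies wholly inside an exon of another annotated isoform, taken with its listed ends. In 9 of the 20 only the first intron was spanned: RPL3, RPL8, RPL11, RPL15, RPL23A, RPL27, RPL32, RPLP0 and RPS6. In 7 only the last was, among them RPL18, RPL24, RPL29, RPS3, RPS9 and RPS20. The division by position was made after the values were seen.

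The median share of the first-intron isoforms was higher in G11 to G14 than in the control. It was 4.31% in the control, 4.77% (G3), 5.84% (G5), 8.38% (G11), 9.18% (G12), 9.71% (G13) and 10.0% (G14). The 95% Wilson interval lay wholly above that of the control for 1 of the 9 genes in G3 against 12.5% of the 200 genes of any kind with such isoforms, and for 3 in G5 against 12.5%. The count was 6 in G11 against 14%, 7 in G12 against 17.0%, 8 in G13 against 19.5% and 7 in G14 against 21.0%. Over the 200 genes the median share was 5.66% in the control and 6.15% to 7.58% in the G libraries. Members are read more deeply than most genes, which narrows their intervals, so the counts are not on an equal footing.

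RPS6 is an example. ENST00000380384 (1403 nt, against 838 nt for the leading isoform) held 1204 of 27917 reads in the control, or 4.31% (4.08 to 4.56). It held 4.77% in G3 and 5.84% in G5, 8.38% in G11 and 9.33% in G12, then 9.71% in G13 and 10.0% in G14 (9.42 to 10.7). In reads this isoform had 685 in G3 and 877 in G14. For RPL15 the share was 3.89% in the control, 3.57% in G3 and 5.25% in G5, 8.54% in G11 and 9.18% in G12, then 11.4% in G13 and 11.8% in G14 (11.1 to 12.6). For RPLP0 the control had 2.58% (2.25 to 2.96) and G14 had 7.11% (6.15 to 8.20). RPL3 lay on both sides, with 3.72% in the control, 3.16% in G3 and 3.13% in G5, below the control, and 4.61% in G12, 4.88% in G13 and 4.48% in G14, above it.

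The last-intron isoforms had another order of libraries. Their median share was 1.86% in the control, 5.00% in G3 and 4.58% in G5, 3.89% in G11 and 2.38% in G12, then 2.17% in G13 and 3.29% in G14. The interval lay above the control for 5 of the 7 genes in G3 against 25.5% of 153 genes with such isoforms, 4 in G5 against 24.8%, 2 in G11 against 13.1%, 0 in G12 against 7.19%, 1 in G13 against 8.50% and 3 in G14 against 19.6%. RPS3 had 2.03% in the control (1.61 to 2.55), 5.31% in G3 (4.32 to 6.50) and 4.58% in G5, 2.79% in G11 and 2.49% in G12, then 2.17% in G13 and 3.69% in G14. RPL29, of the large subunit, had 2.95% in the control and 3.98% (G13) to 7.20% (G5) in the G libraries. In both genes G3 and G5 lay above G12 and G13. The main spanning isoform is longer than the leading one in every gene of the 20 but RPS20, RPL18 and RPS3. What part length has in these shares was not tested.

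**Figure D5:**
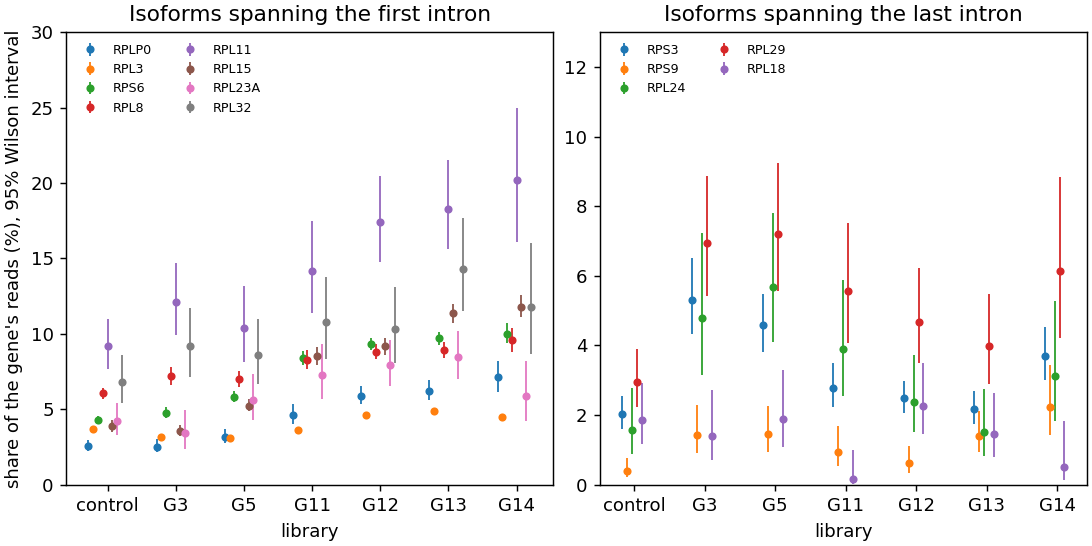
Points give the percent of a gene's reads (vertical axes, which differ between panels) in isoforms that span the first intron (left, 8 genes) or the last intron (right, 5 genes) of the leading isoform in each library, with 95% Wilson intervals. RPL27 and RPS20, whose shares are far larger, are left out. RPS6 goes from 4.31% in the control to 10.0% in G14, and RPS3 from 2.03% in the control to 5.31% in G3.

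RPS24, a small-subunit protein, is known for alternative splicing of a very short exon near the end of its coding region. That exon lies on the plus strand at chr10:78040204-78040225 (GRCh38) and is 22 nt long. The capitals mark the stop codon at its start, and below it the 3 codons that the last exon adds when the short exon is skipped.
RPS24 22-nt exon: TGAgctggagattggatcacag
RPS24 start of the last exon, chr10:78040615-78040626: CCGAAGGAGtaa

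The isoform with the exon, ENST00000372360, and the one without it, ENST00000613865, together held 80.0% to 89.4% of RPS24 reads. The exon was present in 44.9% of these reads in the control (494 with and 606 without, 95% Wilson interval 42.0 to 47.9). It was present in 40.8% in G3 and 38.9% in G5 (35.4 to 42.6), 41.0% in G11 and 44.3% in G12, then 39.6% in G13 (36.6 to 42.7) and 44.7% in G14. Every G value was below the control, but each interval overlapped that of the control. The total of RPS24 stood at 46.3% of the control (G3), 46.4% (G5), 52.9% (G11), 67.9% (G12), 68.2% (G13) and 52.0% (G14).

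Isoforms annotated as targets of nonsense-mediated decay were rare among the members. They held 0.122% of member reads in the control and between 0.0744% (G14) and 0.121% (G3) in the G libraries, from 103 to 311 reads. RPL13A held most of these reads, 182 of 311 in the control, where they were 2.93% of the gene, and 2.95% (G5) to 3.92% (G12) in the G libraries. Protein-coding reference isoforms held 90.8% to 92.5% of member reads, and hashed isoforms 7.17% to 8.97%. The hashed isoforms carry no such annotation, so any decay targets among them are not counted.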

How the data were processed

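Polyadenylated RNA of 7 HUES66 cultures was measured by PacBio long reads. Per the labels' protocols, cDNA was joined into 8-fold arrays (MAS-Seq), sequenced on the Revio system and split into reads. The submitters' processing notes name minimap2 2.17 and GRCh38. The isoform assigner, its filters and the annotation are not given in the sources used here. The deposited table, per the file headers, holds counts of full-length reads and TPM values per isoform and library. The deposited TPM equalled the count scaled to the library total (100% of values within 0.01).

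Isoforms were summed to genes by Ensembl ID stem and empty cells were read as 0. Ratios were taken on log2(TPM + 0.5), which understates low genes, for genes whose mean TPM reached 5, and called at 1.5-fold. Intervals are Wilson (shares) or Clopper-Pearson (ratios) at 95%. The interval method for ratios was tested on simulated data, and that for shares was not. Introns and GC content came from GENCODE 29 by transcript ID, of which starts are printed counted from 1. Transcript length is the span between the listed ends of a reference-ID isoform, less its GENCODE introns. It therefore carries the uncertainty of the listed ends. Python 3.11.15, numpy 2.4.6, pandas 2.3.3 and scipy 1.17.1 were used.

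The members and lists were chosen with earlier results of these data known. Genes were named by rule: the highest and lowest mean TPM per role, the 3 largest and smallest median ratios and spreads (mean TPM from 10 up), members 1.5-fold off in all 6 G libraries, the 5 largest and 2 smallest usage distances, and RPS24, RPL3, RPS3, RPL12, RPL10A and RPL5. RPL15, RPL28, RPL35A, RPL13A, the genes with intron-spanning isoforms and the examples from the lists were chosen after their values were seen. Alternatives covered pseudocount, filter, scaling, reference library, isoform set, fold, length and GC. Spike-in reads were not used here, and a few genes are not named or reported singly here.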

Additional observations from a re-analysis of the deposited data

Results flagged for a closer look

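RPS20, a small-subunit protein, was flagged because its level lay on opposite sides of the control in different G libraries. It was at 120% of the control in G13 (exact 95% interval 105 to 137), while it was at 58.0% in G3 (49.0 to 68.5), 52.5% in G5, 81.5% in G11 and 71.9% in G14 (61.8 to 83.5). In G12 it was at 108%, and that interval spanned 100%. The difference between the libraries was not tested, since each is a single library and all share the control.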

How the results depend on the processing

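No paired analysis was possible because every group has a single library and all carry the same replicate number. Of 60 median log2 ratios under another setting, 47 stayed within the counting interval of the gene nearest the median, 10 left it and 3 reversed. The 126 medians of named genes with a G library left out all kept their direction. Where all 6 G libraries lie below the control, that outcome was fixed in advance, so it is no check for such genes. With the median of the other 6 libraries as reference in place of the control, the medians were 0.17 in G3 and -0.29 in G5, -0.16 in G11 and 0.11 in G12, then 0.16 in G13 and -0.55 in G14. That reference is made up mostly of G libraries, so these values place each G library among the others. The direction given for all 6 G libraries rests on the control. Rescaling by the median of ratios moved the median of all genes to between -0.06 and 0.10 and gave -0.72 for the members in G12. After removal of the trend in length and GC, and with it of the offset of all genes, the medians of the members changed. They were -0.15, -0.43, -0.42, -0.48, -0.51 and -0.64 in the order G3, G5, G11, G12, G13, G14. The genes at least 1.5-fold lower then numbered 13 in G3, 21 in G5, 28 in G11 and 36 in G14, and those higher 1 in G3, 2 in G5, 1 in G11 and 1 in G14. A 2-fold threshold gave 14 lower in G3, 34 in G11, 26 in G12 and 21 in G13, and a mean TPM of at least 20 gave 23 of 43 in G12 and 24 in G13, with the shares of all genes in the report. The summed share with isoforms of a reference ID alone was 1.40% in the control and, in that order, 0.842%, 0.705%, 0.768%, 0.984%, 1.01% and 0.602%. Against listed reads it was 0.938%, 0.783%, 0.849%, 1.08%, 1.10% and 0.672% in the G libraries. The usage distance was 0.043 in G3, 0.046 in G5 and 0.073 in G14 with isoforms of at least 1 TPM, and 0.026, 0.017, 0.028, 0.028, 0.027 and 0.033 with reference isoforms alone. Depth limits the 13 weakest genes, whose intervals often span the control level.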
